A study of Mus musculus with 14 samples.

Results

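The Hedgehog pathway genes described here were the 9 genes Shh, Ptch1, Hhip, Boc, Cdon, Smo, Gli1, Gli2 and Gli3, read by gene symbol from the tables of 41934 genes that compared Dio3-/- with Dio3+/+ brain at E13.5 and at E18.5 (E, embryonic day). A symbol that stood more than once was read from its most abundant entry. Of the 9 genes, 0 passed the adjusted threshold at E13.5 and 1 passed at E18.5, Gli1, which was 1.36-fold higher in Dio3-/- brains. The other 8 genes did not pass at either age, and the genotype difference of Gli1 itself differed between the ages.

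Sonic hedgehog (SHH) is a secreted signal of the floor plate, the ventral forebrain and, late in gestation, Purkinje cells of the cerebellum, and it patterns the neural tube and drives the division of neural progenitors. It binds PTCH1 together with the co-receptors BOC and CDON, which releases the membrane protein SMO from inhibition at the primary cilium. SMO then shifts the GLI transcription factors from repressor to activator forms. Gli1, Ptch1 and Hhip are themselves direct transcriptional targets of the pathway, and their mRNA is widely used as a readout of its activity.

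RNA sequencing had been done on whole brains of individual male fetuses, 14 libraries in all. The E13.5 libraries were 4 of Dio3+/+ and 2 of Dio3-/- fetuses. The E18.5 libraries were 3 of Dio3+/+ and 5 of Dio3-/- fetuses. The paper reports that a Dio3+/+ sample of E18.5 fell among the Dio3-/- samples when samples were clustered. Its principal component analysis separated the genotypes of that age along the leading component. The mice were C57BL/6J, and Dio3+/+ and Dio3-/- fetuses were littermates from matings of Dio3+/- parents. DIO3 is the enzyme that clears thyroid hormone, and the germline Dio3 mutation was present in every tissue of the fetus, not in brain alone. The comparison asked how brain gene expression differed when this clearance was lost. The mutation inactivates the enzyme and leaves an mRNA, so Dio3 mRNA does not check the genotype labels. It was lower in Dio3-/- brains at E13.5 (log2 fold change -0.89, SE 0.23, adjusted p = 0.00584) and higher at E18.5 (1.10, SE 0.15, adjusted p = 8.45e-10). Klf9, a thyroid hormone target, was higher at both ages, by 0.76 and 1.52 on the log2 scale. Libraries came from 2 sequencing batches, the labels do not say which library belonged to which, and batch and genotype cannot be told apart in the tables. Values of single libraries were not analysed here, so the spread between fetuses is not shown for any gene. The standard error of each fold change is the error of the authors' estimate and not that spread. Every group mean given was derived from the authors' mean and fold change.

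All 9 genes were placed on GRCm38, and 4 of them shared exon bases with annotated genes of the other strand. Shh lay on chromosome 5 from 28456815 to 28467256 (minus strand), Ptch1 on chromosome 13 from 63508328 to 63573598 (minus) and Gli1 on chromosome 10 from 127329882 to 127341974 (minus). Gli3 lay on chromosome 13 from 15463235 to 15730026 (plus), Gli2 on chromosome 1 from 118834132 to 119053619 (minus) and Smo on chromosome 6 from 29735503 to 29761365 (plus). Hhip lay on chromosome 8 from 79965851 to 80058006 (minus), Boc on chromosome 16 from 44485049 to 44558897 (minus) and Cdon on chromosome 9 from 35421128 to 35507652 (plus). Reads had been counted without strand, so a read in exon bases shared with another gene could not be assigned to either. Levels per kilobase below were divided by all exon bases of a gene, shared ones included. The overlap was widest for Shh, where 807 of 2847 exon bases (28.35%) were shared with the opposite-strand genes Gm26894 and 9530036O11Rik. For Gli1 it was 6.55% of exon bases, shared with Arhgap9 and Gm47200, for Gli3 1.96% and for Hhip 1.93%. It was 0 for the other 5 genes.

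All 9 genes passed the filter on low mean counts at both ages, which left 16436 genes at E13.5 (lowest mean 21.7) and 17607 genes at E18.5 (lowest mean 13.8). Genes past that filter are called kept genes below. Per kilobase of merged exon, the most abundant member at E13.5 was Boc (mean normalized count per kb 542.3), followed by Gli3 (481.7), Cdon (444.6), Ptch1 (391.5) and Smo (372.9). Gli2 (193.2), Shh (131.6) and Gli1 (64.1) were lower, and Hhip (25.1), which encodes a decoy that binds Hedgehog ligands, was the lowest. The co-receptors and Gli3 thus stood between the 80.8 and 84.9 percentiles of all kept genes by level per kb, and Hhip at the 18.1 percentile. At E18.5, Ptch1 led with 217.1 per kb, ahead of Boc (180.3), Cdon (145.0), Smo (116.0) and Gli3 (98.4). Gli2 (60.4), Gli1 (44.9), Shh (33.3) and Hhip (32.9) followed. Neighbours in either order could not be separated, because the deposited tables give no spread for a level.

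**Figure D1:**
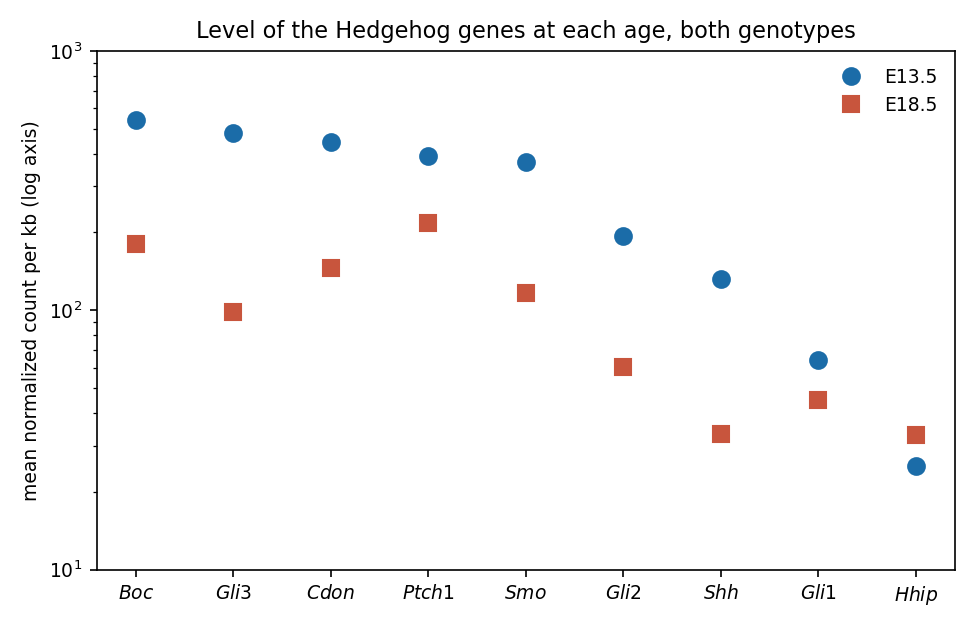
Mean normalized count per kb of merged exon (log axis) of the 9 Hedgehog genes, averaged over both genotypes within each age (circles E13.5, squares E18.5), in order of the E13.5 level. Boc was highest at E13.5 (542.3) and Ptch1 at E18.5 (217.1), and only Hhip stood higher at E18.5 (32.9) than at E13.5 (25.1).

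The level of most members was lower at E18.5 than at E13.5. The log2 ratio of the mean normalized counts was -2.29 for Gli3, -1.98 for Shh, -1.68 for both Smo and Gli2, -1.62 for Cdon and -1.59 for Boc. These 6 genes were among the lowest 3.46% of the 17793 genes with a mean count of at least 10 at both ages, whose median was -0.28. The targets of the pathway were nearer to the other genes, with Ptch1 at -0.85 (percentile 14.6), Gli1 at -0.51 (percentile 33.5) and Hhip at 0.39 (percentile 81). Counts had been normalized within each age and the genotype mix differed between the ages, so these ratios are descriptions with no test.

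The start-site sequences of the target genes Ptch1 and Hhip are shown because their mRNA is compared with that of Gli1 at both ages. They were taken from RefSeq on GRCm38.p6, where 6 of the 9 genes had a window of 300 bases (250 before and 50 after the start): Ptch1, Hhip, Smo, Gli2, Gli3 and Cdon. Both are written 5′ to 3′ along the gene, which is the minus strand for both, and capitals mark the GC box, GGGCGG or its reverse complement CCGCCC. The Ptch1 window, chr13:63565686-63565985, lay within the bounds of the annotated gene and had a GC content of 76.3%. The Hhip window, chr8:80057959-80058258, had 73.7%.
Ptch1: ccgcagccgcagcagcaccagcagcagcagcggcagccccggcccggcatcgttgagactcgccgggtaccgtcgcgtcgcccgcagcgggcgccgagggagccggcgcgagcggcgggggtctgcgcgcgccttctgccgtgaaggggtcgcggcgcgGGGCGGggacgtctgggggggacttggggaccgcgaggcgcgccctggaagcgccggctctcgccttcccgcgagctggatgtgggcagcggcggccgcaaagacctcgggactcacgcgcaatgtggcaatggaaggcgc
Hhip: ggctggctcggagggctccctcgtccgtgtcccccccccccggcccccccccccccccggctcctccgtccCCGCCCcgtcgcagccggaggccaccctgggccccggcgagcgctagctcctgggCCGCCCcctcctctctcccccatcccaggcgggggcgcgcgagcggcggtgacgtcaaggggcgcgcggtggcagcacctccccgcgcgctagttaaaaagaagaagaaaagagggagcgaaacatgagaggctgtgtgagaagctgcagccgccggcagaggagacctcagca
The GC box, searched on both strands, was present in 4 of the 6 windows, once in Ptch1 and Gli2 and in 2 copies in Gli3 and Hhip, against 35.7% of 32851 RefSeq windows of the same length. The GLI binding site TGGGTGGTC was present in 0 of the 6 windows (0.253% of all windows). The letters AGGTCA, the core of a thyroid hormone receptor element, were in 0 of 6 (16.3% of all), and their direct repeat spaced by 4 bases, which contains that core, was also in 0 of 6 (0.0152% of all). These counts say only which letters stood in the windows.

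At E13.5, 0 of the 9 genes passed the adjusted threshold, where 3.56% of all kept genes did (585 of 16436). Gli3, the main repressor among the GLI factors, had the lowest p. Its mean normalized count derived for each genotype was 4883.8 in Dio3+/+ and 4088.9 in Dio3-/- brains, a fold of 0.837 (95% interval 0.742 to 0.944), with an unadjusted p of 0.00383 and an adjusted p of 0.0883. It was the only member with an unadjusted p under 0.05, or 1 of 9, where 12.0% of all kept genes had such a p and 5.83% had one under 0.01. Gli2, the main activator downstream of SMO, was at 1371.7 and 1237.3 (log2 fold change -0.15, SE 0.08, adjusted p = 0.454). Gli1 was at 337.1 in Dio3+/+ and 286.7 in Dio3-/- (-0.23, SE 0.16, adjusted p = 0.635). All 3 GLI mRNAs therefore had estimates below 0 at this age, without passing the test.

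The ligand and surface genes at E13.5 had estimates on both sides of 0. Shh was at 364.5 in Dio3+/+ and 395.1 in Dio3-/- (log2 fold change 0.12, SE 0.17, adjusted p = 0.896). The receptor Ptch1 was at 5687.4 and 5284.4 (-0.11, SE 0.07, adjusted p = 0.669), and Smo had -0.04 (SE 0.07, adjusted p = 0.912). The co-receptors lay apart in sign, with Boc at 0.15 (SE 0.10, adjusted p = 0.647) and Cdon at -0.14 (SE 0.11, adjusted p = 0.744). Hhip was at 227.7 and 228.3 (0.00, SE 0.15), and its 95% interval ran from -0.30 to 0.31. Over the 9 genes, 3 estimates were above and 6 below 0, with a median of -0.11 against -0.01 over all kept genes.

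At E18.5, Gli1 passed the threshold and was higher in Dio3-/- brains. Its mean normalized count was 183.6 in Dio3+/+ and 249.0 in Dio3-/-, a log2 fold change of 0.44 (SE 0.11, adjusted p = 0.0129) and a fold of 1.36 (95% interval 1.16 to 1.58). That made 1 of 9 members called, where 1.37% of all kept genes were called (242 of 17607). Its adjusted p rests on the normal distribution of the authors' Wald statistic. Under a t distribution (6 degrees of freedom) the unadjusted p was 0.00849 and the adjusted p 0.996, and that setting left 1 called gene in the whole table, Klf9. With so few calls the filter on low mean counts, chosen again from the calls, removed no genes. The adjustment under the t distribution therefore ran over 32495 genes. Arhgap9, which shares exon bases with Gli1, was at a mean count of 9.78 with a fold change of 0.13 (SE 0.51) on the log2 scale, and Gm47200 was listed at 0.

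Shh, the ligand, had the largest estimate among the members at E18.5 and did not pass. Its mean normalized count was 73.4 in Dio3+/+ and 107.9 in Dio3-/-, a log2 fold change of 0.56 (SE 0.18, unadjusted p = 0.00197, adjusted p = 0.107) and a fold of 1.47 (95% interval 1.15 to 1.88). Shh and Gli1 were the 2 members with an unadjusted p under 0.01, a level reached by 3.42% of kept genes. The genes that share exon bases with Shh had mean counts of 6.34 (Gm26894) and 9.58 (9530036O11Rik), and log2 fold changes of -0.04 (SE 0.60) and 0.28 (SE 0.49).

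The other targets of the pathway, Ptch1 and Hhip, had estimates near 0 at E18.5. Ptch1 was at 3084.6 in Dio3+/+ and 3076.9 in Dio3-/-, a fold of 0.997 with a 95% interval of 0.932 to 1.07 (adjusted p = 0.998). Hhip was at 297.6 and 298.9 (log2 fold change 0.01, 95% interval -0.18 to 0.20, adjusted p = 0.998). The interval of Ptch1 did not reach the lower end of the Gli1 interval, 1.16-fold, but the difference between the genes was not tested. Gli3 was at 1016.0 and 900.7, a fold of 0.887 (95% interval 0.808 to 0.973, unadjusted p = 0.0115, adjusted p = 0.316). Gli2 had a log2 fold change of -0.04 (SE 0.10, adjusted p = 0.998). Smo (-0.04, SE 0.07), Boc (-0.03, SE 0.06) and Cdon (-0.07, SE 0.07) had adjusted p of 0.988, 0.995 and 0.953. Again 3 estimates lay above and 6 below 0, with a median of -0.03 against 0.00 over all kept genes.

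**Figure D2:**
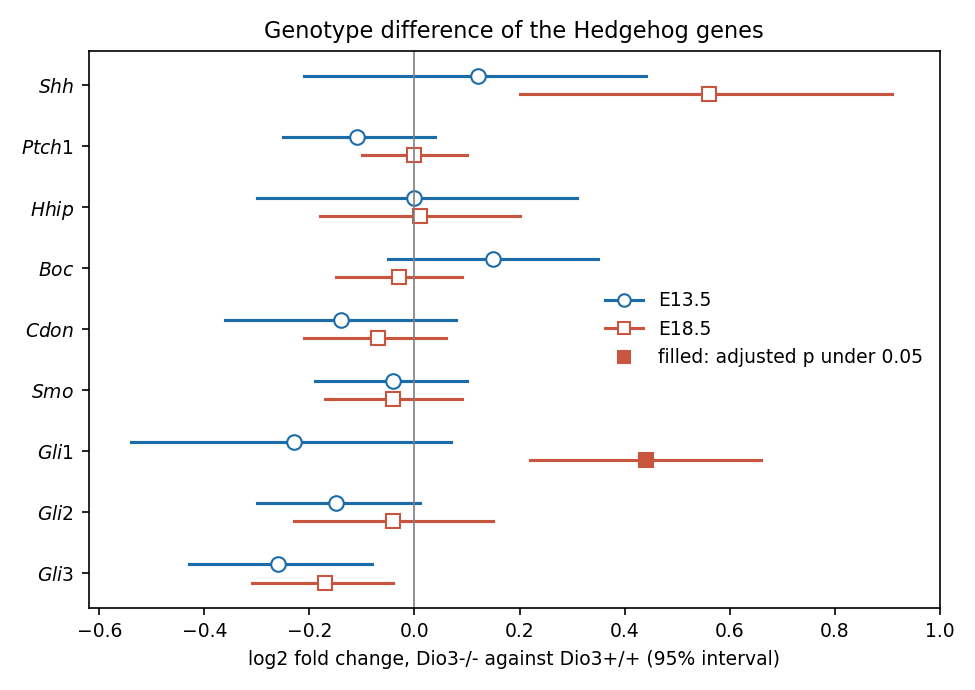
Log2 fold change of each Hedgehog gene in Dio3-/- against Dio3+/+ brains with its 95% interval (lines), at E13.5 (circles, 6 libraries) and E18.5 (squares, 8 libraries). The filled square is Gli1 at E18.5 (0.44), the only estimate with an adjusted p under 0.05.

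**Figure D3:**
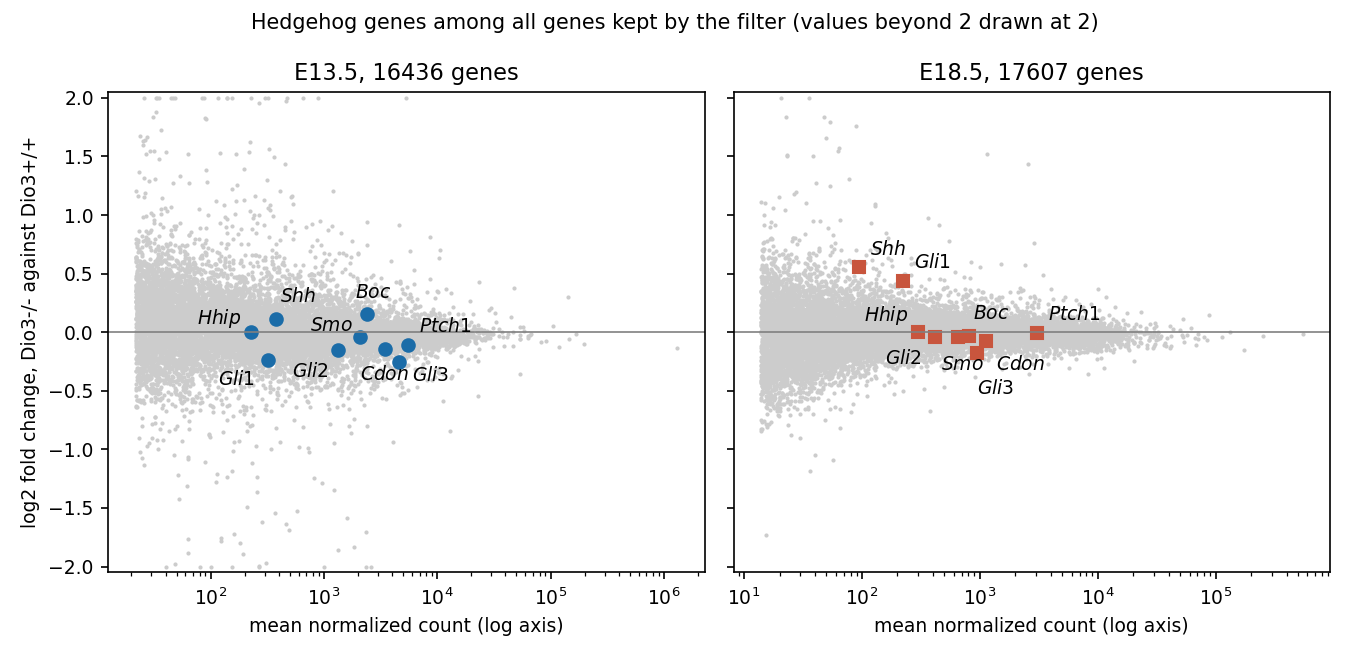
Log2 fold change in Dio3-/- against Dio3+/+ brains against the mean normalized count (log axis) for all kept genes (grey, 16436 at E13.5 and 17607 at E18.5), with the 9 Hedgehog genes in colour. At E18.5 Shh (0.56) and Gli1 (0.44) lie above the other 7 genes, which lie between -0.17 and 0.01.

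The genotype differences of the 2 ages were then set against each other gene by gene. For Gli1 the log2 fold change was -0.23 at E13.5 and 0.44 at E18.5, a difference of 0.67 (SE 0.19, 95% interval 0.30 to 1.05, unadjusted p = 4.73e-04, adjusted p = 0.0297). It was the 1 member of 9 that passed this test, which 1.95% of all genes tested passed (347 of 17793). The call was lost with a t distribution (adjusted p = 0.362) and when the statistic was divided by its central spread of 1.11 (adjusted p = 0.102). For Shh the difference was 0.44 (SE 0.25, adjusted p = 0.571) and for Boc -0.18 (SE 0.12, adjusted p = 0.692). For the remaining 6 genes it was between 0.00 (Smo and Hhip) and 0.11 (Gli2), with adjusted p of at least 0.819. Gli3 had estimates below 0 at both ages, -0.26 and -0.17, which differed by 0.08 (SE 0.11).

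By the pair of fold changes at the 2 ages, the genes nearest to Gli1 among 12502 protein-coding genes with a mean count of at least 50 were Slc35g1, Htra1 and Sdf2l1, at distances of 0.0625, 0.0651 and 0.0702. Htra1, a secreted serine protease, had -0.21 (SE 0.29) at E13.5 and 0.38 (SE 0.08) at E18.5. Slc35g1 had -0.18 (SE 0.19) and 0.42 (SE 0.16), and Sdf2l1, a protein of the endoplasmic reticulum, -0.28 (SE 0.14) and 0.39 (SE 0.16). With only 2 comparisons behind each distance, the likeness describes those values and nothing more.

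Beyond the 9 members, 33 further genes of Hedgehog signalling were followed, and 0 of them were called at either age (30 kept at E13.5 and 31 at E18.5). An unadjusted p under 0.05 was found for 2 of the 30 at E13.5 (12.0% of all kept genes) and 3 of the 31 at E18.5 (8.04% of all kept genes), which is near or below those shares. Their median log2 fold change was 0.02 at E13.5 and -0.02 at E18.5. The list of ligands and proteins of ligand release, in which Shh is counted again, had all 7 kept genes above 0 at E13.5 (median 0.12) and 5 of 7 below 0 at E18.5 (median -0.09). Scube1, which helps to release lipid-modified ligand, had 0.23 at E13.5 (SE 0.08, unadjusted p = 0.00391, adjusted p = 0.0893), the lowest p of that group. Hhat, the enzyme that attaches palmitate to the ligand, had -0.45 at E18.5 (SE 0.19, adjusted p = 0.425). The other ligands, Ihh (mean counts 5.38 and 4.38) and Dhh (13.1 and 11.7), were below the filter at both ages.

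The other receptors, surface proteins and intracellular members were among the genes that did not pass. Among the surface proteins at E13.5, the lowest p belonged to Mosmo, an attenuator of SMO (-0.14, SE 0.07, adjusted p = 0.408). Sufu, which holds GLI proteins in the cytoplasm, had 0.01 (SE 0.06) at E13.5 and a fold of 0.999 at E18.5. Of 15 genes of the primary cilium, the organelle in which SMO acts, 0 were called at either age, with medians of -0.03 and -0.04, and an unadjusted p under 0.05 was found for 0 of the 15 at E13.5 and 1 of the 15 at E18.5, against 12.0% and 8.04% of all kept genes. The lowest p there was that of Ift88 at E18.5 (-0.18, SE 0.07, adjusted p = 0.315).

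Genes that Hedgehog signalling patterns along the neural tube did pass the test at E13.5. Nkx2-1, a factor of the ventral forebrain, fell by 1.29 on the log2 scale (SE 0.27, adjusted p = 1.99e-04), and Olig2, a factor of motor neuron and oligodendrocyte progenitors, fell by 0.54 (SE 0.15, adjusted p = 0.0162). These were 2 of the 10 ventral factors kept, where 3.56% of all kept genes passed at this age. Of the 10, 5 had estimates above 0. Foxa2, a floor plate factor, was among those, with 0.36 (SE 0.14, adjusted p = 0.163). Among dorsal and intermediate factors, 3 of 7 passed. Pax3 rose by 0.67 (SE 0.12, adjusted p = 1.39e-05) and Irx3 by 0.51 (SE 0.10, adjusted p = 8.56e-05), while Pax6 fell by 0.74 (SE 0.09, adjusted p = 8.67e-13). Of 7 genes of proliferation downstream of the pathway, Ccnd2, a G1 cyclin, fell by 0.55 (SE 0.09, adjusted p = 8.73e-07), and the other 6 had estimates below 0 without passing. At E18.5, 0 genes of these 3 lists passed, and an unadjusted p under 0.05 was found for 2 of 10 ventral factors, 0 of 8 dorsal and intermediate factors and 1 of 7 genes of proliferation, against 8.04% of all kept genes. Foxa2 then had -0.70 (SE 0.25, adjusted p = 0.181) and Mycn, a Hedgehog target in cerebellar granule precursors, 0.11 (SE 0.05, adjusted p = 0.555).

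Markers of brain regions and of tissue around the brain moved with genotype at E13.5 as well, and their part in the Hedgehog values was not tested. In whole-brain RNA, fewer cells of a type and less RNA per cell cannot be told apart. Over all kept genes, 3.56% were called at E13.5. Summed levels below are over every listed gene, kept or not. All 9 dorsal telencephalon markers fell (median -1.52, Fezf2 with the lowest p), and their summed level was 19927.7 in Dio3+/+ and 9466.6 in Dio3-/- brains. Of 10 ventral telencephalon markers, a list in which Nkx2-1 is counted again, 9 fell (median of the 10 -1.50, Dlx1 with the lowest p). Their summed level was 9259.8 in Dio3+/+ and 3218.9 in Dio3-/-. Of 18 kept Hox genes, markers of hindbrain and spinal cord, 7 rose, Hoxa6 with the lowest p. The median of the 18 was 2.32, and the summed level of all 39 listed Hox genes was 2356.4 in Dio3+/+ and 11079.3 in Dio3-/-. Of 9 kept cartilage markers 7 rose, with estimates from 0.70 (Col2a1) to 2.97 (Acan, which also had the lowest p), and the summed level of all 13 listed was 7763.6 and 13654.6. All 9 floor plate markers, a list that includes Shh and Foxa2, had estimates above 0 (median 0.36), and 3 passed: Sulf1, Corin and Lmx1b. No defining marker of either telencephalic list was at 0 in the mean.

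At E18.5, the age of the Gli1 call, only the leptomeninges and head mesenchyme list among the marker lists held called genes. The count was 0 for dorsal telencephalon (summed level 24445.8 in Dio3+/+ and 23042.7 in Dio3-/-), ventral telencephalon (6110.3 and 6263.7), Hox genes (1927.5 and 2269.2), cartilage (2399.7 and 2642.1) and floor plate (5669.0 and 5597.6). It was also 0 for the 10 markers of cerebellar granule and Purkinje cells, where Zic4 had the lowest p (-0.16, SE 0.05, adjusted p = 0.101), and for the 5 markers of oligodendrocyte precursors. An unadjusted p under 0.05 was found for 3 of 9 dorsal telencephalon, 3 of 8 kept cartilage, 2 of 8 kept floor plate (Shh and Foxa2) and 2 of 10 cerebellar markers, and for 0 of the ventral telencephalon, Hox and oligodendrocyte precursor lists, against 8.04% of all kept genes. Of 10 markers of leptomeninges and head mesenchyme, Dcn (0.35, SE 0.07, adjusted p = 9.22e-05) and Ptgds (0.30, SE 0.06, adjusted p = 3.63e-05) rose. That was 2 of 10 called, against 1.37% of all kept genes. An unadjusted p under 0.05 was found for 4 of the 10, against 8.04%. The summed level of this list was 17269.4 in Dio3+/+ and 18204.9 in Dio3-/-. Whether these cells bear on the Gli1 value was not tested.

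**Figure D4:**
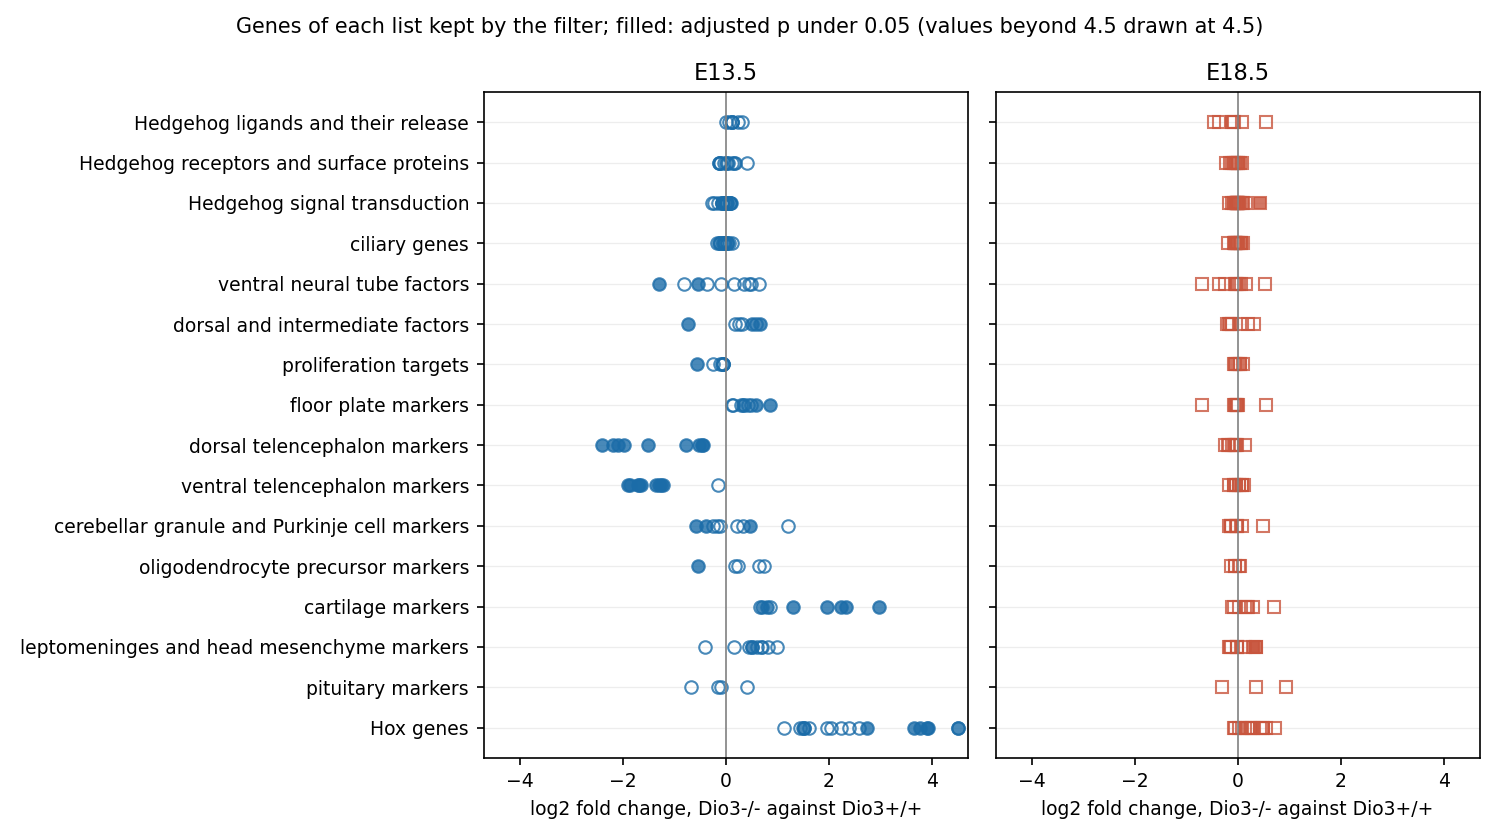
Log2 fold change in Dio3-/- against Dio3+/+ brains of the kept genes of each list, at E13.5 (circles) and E18.5 (squares), with genes at an adjusted p under 0.05 filled. The genes of the Hedgehog lists lie between -0.26 and 0.41 at E13.5 and between -0.45 (Hhat) and 0.56 (Shh) at E18.5, with Gli1 filled, while at E13.5 the 9 dorsal telencephalon markers lie below 0 and the 18 Hox genes above it.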

How the data were processed

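Whole-brain RNA of 14 male fetuses was sequenced, and groups were taken from the sample labels. The authors trimmed reads with Cutadapt 3.1, aligned them to GRCm38 with STAR 2.5.3a on GENCODE VM22, removed rRNA and tRNA with bedtools 2.26.0 and counted reads per gene with HTSeq (union mode, no strand). They then removed batch differences from the counts by ComBat-seq, and the authors compared the genotypes at each age by DESeq2 1.30.1. The batch adjustment can alter fold changes and their errors. The authors deposited, per age, only the result of this comparison. The deposited signal, a mean normalized count, had been divided by size factors by the authors and averaged over all libraries of an age. Fold changes, with their standard errors, were deposited on a log2 scale. The Wald statistic of the authors is a score, the fold change over its error. The deposited p-value belongs to that statistic under a normal distribution.

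Depth per library is unknown, and the median standard error of kept genes was 0.11 at E13.5 and 0.09 at E18.5. In R 4.3.3, genes below a mean-count cutoff were removed and p-values were adjusted again by the Benjamini-Hochberg method, with a threshold of 0.05. Of 50 quantiles tried, the cutoff was the lowest whose number of calls exceeded the smoothed maximum less the residual spread. Group means were derived from the deposited mean, fold change and group sizes. The ages were compared by the difference of the fold changes over its combined error, two-sided, for genes with a mean count of at least 10 at both ages. Intervals are 95% normal intervals. Fetuses were littermates, but the labels do not say which of them shared a litter. Scripts were tested on simulated data. Gene positions, exon lengths and overlaps came from GENCODE vM21, a release older than that of the authors.

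The members and all lists were chosen with earlier results of these data known. The named genes were the 9 members, Dio3, the called genes of the Hedgehog, ventral, dorsal and proliferation lists, the lowest p of each other list and the 3 genes nearest to the called member with the largest fold change. Klf9, the called floor plate genes, the genes that overlap members and Sufu, Hhat, Foxa2, Ihh, Dhh, Dcn, Skor2 and Rora were named in addition, after their values were seen. Some genes that this rule names are not reported here. Alternatives were no filter, a fixed filter at a mean count of 10, a t distribution, division by the central spread, median centring, protein-coding genes only, the deposited adjusted p, and removal of GC content and length. A minimum mean count of 50 for the difference between ages was added after the data were seen.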

Additional observations from a re-analysis of the deposited data

Results flagged for a closer look

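The genotype difference of Gli1 differed between the ages by the test of the difference itself. It was -0.23 at E13.5 and 0.44 at E18.5 on the log2 scale, a difference of 0.67 (SE 0.19, adjusted p = 0.0297 from the Wald statistic with Benjamini-Hochberg adjustment over 17793 genes). Over 6 alternatives its adjusted p ranged from 0.0172 to 0.362. The number of fetuses showing the direction is not known, since values of single libraries were not analysed here.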

How the results depend on the processing

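A t distribution with 4 degrees of freedom at E13.5, 6 at E18.5 and 10 for the difference between ages, in place of the normal, left 0 members called at E18.5, 0 Hedgehog pathway genes called at E18.5 and 0 members with a difference between ages. Within each age that setting also removed no genes by mean count, so it adjusted over 31372 genes at E13.5 and 32495 at E18.5. Dividing the statistic by its central spread (1.13 at E13.5, 1.02 at E18.5 and 1.11 for the difference) also left 0 members with a difference between ages. Over 8 alternatives the adjusted p of Gli1 at E18.5 ranged from 0.00907 to 0.996 and was lost with the t distribution alone. That of Shh at E18.5 was never under 0.0918 and that of Gli3 at E13.5 never under 0.0832. Of the values of single members under alternatives, 195 stayed on the same side of the threshold and 3, all of Gli1, lost the call. Those 3 kept their direction. Some estimates near 0 changed sign, such as Ptch1 at E18.5 (-0.00, and 0.02 with GC content and length removed). Over all genes at E13.5, 585 were called, 323 after division by the central spread and 0 with the t distribution (799 kept genes had an unadjusted t p under 0.05). At E18.5 it was 242, and 1 with the t distribution (714 under 0.05), with 198 to 249 under the other settings. Leaving out a library was not run, since no values of single libraries were analysed here. No paired analysis was possible because the deposited comparisons carry no replicate numbers. With 2 Dio3-/- brains at E13.5, what could be detected depends on the standard error of each gene. Among the members it ran from 0.07 (Ptch1 and Smo) to 0.17 (Shh), against a median of 0.11 over kept genes.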

Other observations

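Markers of other cell types that the brains could hold gave further values at both ages. Over all kept genes, 3.56% were called at E13.5 and 1.37% at E18.5. Of 4 kept pituitary markers at E13.5 and 3 at E18.5, 0 were called, and at E13.5 the lowest p was that of Pitx1 (-0.68, adjusted p = 0.43). Of 9 kept markers of cerebellar granule and Purkinje cells, the cells that respond to and secrete SHH late in gestation, Skor2 rose by 0.46 (SE 0.13, adjusted p = 0.0151) at E13.5, while Calb1 fell by 0.57 (SE 0.15, adjusted p = 0.00945) and Rora by 0.38 (SE 0.11, adjusted p = 0.0255). Of 5 markers of oligodendrocyte precursors at E13.5, the 1 called was Olig2. Dcn, a proteoglycan of the meninges, rose at E13.5 as well (0.50, SE 0.14, adjusted p = 0.0146), the 1 called gene of the 10 kept in its list at that age. Of these 10 markers of leptomeninges and head mesenchyme, 9 had estimates above 0 at E13.5 (median 0.56). Their summed level was 19908.8 in Dio3+/+ and 32488.9 in Dio3-/- brains. An unadjusted p under 0.05 was found for 3 of the 10, against 12.0% of all kept genes.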
